A study of Mus musculus with 4 samples.

Results

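Respiratory complex I, NADH:ubiquinone oxidoreductase, was followed through its subunit messenger RNAs in CD8 T cells that had infiltrated hepatocellular carcinoma in mice. Members were taken by name from the deposited count table. They were the protein-coding genes whose symbol begins with Ndufa, Ndufb, Ndufc, Ndufs or Ndufv and a number, and the mitochondrially encoded ND1, ND2, ND3, ND4, ND4L, ND5 and ND6. This gave 46 of 14934 genes, 39 of them nuclear and 7 mitochondrial. All cells were of wild-type genotype, with no treatment given in the labels, and the JAML-positive were separated from the JAML-negative CD8 T cells by flow cytometric sorting. JAML (junctional adhesion molecule-like) is a surface receptor with immunoglobulin domains. Each of the 2 groups had 2 libraries, A and B, prepared from total RNA with a SMARTER mRNA kit. The labels give no strain, age or tumour model, and leave unsaid what the letters A and B stand for (mice, pools or sorts). The p-values therefore capture the spread among these 4 libraries alone, which may be technical.

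Complex I is the entry point of electrons from NADH into the respiratory chain of the inner mitochondrial membrane. It passes them to ubiquinone and pumps protons, and the proton gradient then drives ATP synthesis. Its 14 core subunits are conserved from bacteria, and accessory subunits surround them. Of the core subunits, 7 (the ND proteins) are encoded by the mitochondrial genome and lie in the membrane arm. The nuclear core subunits lie in the arm that protrudes into the matrix. The complex is divided into the N module (NADH oxidation), the Q module (ubiquinone reduction) and the proximal and distal parts of the membrane arm, called PP and PD. T cells increase mitochondrial mass and respiration when they are activated, and both genomes have to supply the complex.

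Library totals were 27530187 to 30569728 counts. The sort marker Jaml (Entrez 270152, chromosome 9) was present in both groups, at 131 and 117 counts per 1000000 (CPM, on the TMM scale) in JAML-negative A and B and 138 and 147 CPM in JAML-positive A and B (log2 fold change 0.20, SE 0.26, edgeR adjusted p = 0.881). Directions below therefore rest on the labels. T cell markers (Cd3d, Cd3e, Cd3g, Cd2, Lck, Cd8a and Cd8b1) summed to 3880 to 4430 CPM in every library. One library, JAML-positive A, differed from the rest in its share of ribosomal protein counts, which was 12.53% there and 7.712% to 8.620% elsewhere. Markers of dendritic cells and phagocytes summed to 263 and 235 CPM in JAML-negative A and B and to 672 and 452 CPM in JAML-positive A and B, with 9 of 12 markers higher. Markers of B and plasma cells summed to 10.4 and 18.1 CPM against 126 and 84.9 CPM, although Cd79a had at most 4 counts in each library. Erythroid markers summed to 0 and 0.0363 CPM against 49.7 and 15.9 CPM. Hepatocyte markers summed to 31.5 and 4.25 CPM against 14.5 and 14.9 CPM, and Cd4 with Foxp3 to 126 and 125 CPM against 144 and 173 CPM. Endothelial and stromal markers summed to 139 and 146 CPM against 121 and 138 CPM. Most of that sum was Pecam1, with 126 and 146 CPM against 99.9 and 124 CPM. Of the 4 tested, 3 had a log2 fold change above 0 and 1 below, and Kdr had 13 and 12 counts against 189 and 212. The part of these other cells in the results on complex I was not tested.

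The mitochondrial members differ in how much of their sequence is also present in annotated transcripts of other genes, and this is shown first. Genomic sequence outside annotated transcripts was not searched. Nuclear copies of mitochondrial DNA are common in mammals, and a read from an identical stretch cannot be assigned to one place. Of all stretches of 50 bases in the transcript, 98.0% in ND3, 98.8% in ND4L and 62.2% in ND4 are identical to a stretch of a gene on chromosome 1 (Gm28438, Gm10222 and Gm28439). The share is 8.2% in ND2, 7.6% in ND5 and 0.0% in ND1 and ND6. The first 90 bases of ND3 and ND4L, and bases 831 to 920 of ND4, are printed below 5′ to 3′ from the GENCODE transcripts of GRCm38. They show where the match to the annotated copy begins or ends. Capitals mark the bases that belong to the longest run identical to the nuclear copy.
ND3: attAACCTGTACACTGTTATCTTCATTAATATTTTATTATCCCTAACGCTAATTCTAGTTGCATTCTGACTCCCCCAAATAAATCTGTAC
ND4L: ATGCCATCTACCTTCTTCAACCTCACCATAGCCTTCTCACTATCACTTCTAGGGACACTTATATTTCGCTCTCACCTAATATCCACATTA
ND4: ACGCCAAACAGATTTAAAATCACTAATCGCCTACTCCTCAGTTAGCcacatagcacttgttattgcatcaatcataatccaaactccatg
In ND3 the match runs from base 4 to base 345 of 348, and in ND4L from base 1 to base 294 of 297. In ND4 it covers bases 1 to 876 of 1378. These are the ends of the match to an annotated transcript. Whether the identity goes on in the genome beyond them was not examined.

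The mitochondrial subunits were measured in 2 very different ranges. ND1 (Entrez 17716, MT 2751 to 3707), which lies where the membrane arm meets the ubiquinone site, had 2520 and 2620 CPM in JAML-negative A and B and 2920 and 2540 CPM in JAML-positive A and B. ND2, one of the antiporter-like proton pumping subunits, had 2010 and 1930 CPM against 2090 and 1990 CPM. ND4 and ND5, the other antiporter-like subunits, had 1290 and 1310 against 1340 and 1290 CPM, and 2120 and 2040 against 1840 and 2550 CPM. In these 4 genes the groups overlapped and no library differed from another of its group by more than 1.39-fold. Their log2 fold changes were 0.086 (SE 0.18) for ND1, 0.053 (SE 0.18) for ND2, 0.019 (SE 0.18) for ND4 and 0.077 (SE 0.20) for ND5, with edgeR adjusted p from 0.935 to 0.989. Their 95% intervals reached from -0.38 to 0.52 on the log2 scale.

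ND6 (Entrez 17722, MT 13552 to 14070) is the only mitochondrial protein gene encoded on the opposite strand to the others. It had 94.4 and 122 CPM in JAML-negative A and B and 173 and 172 CPM in JAML-positive A and B. The groups did not overlap, and the higher values were those of JAML-positive cells. The log2 fold change of 0.68 (SE 0.27, 95% interval 0.091 to 1.26) did not pass over all genes (edgeR adjusted p = 0.609). The exon of ND6 overlaps that of ND5 on the opposite strand over 14 bases, 2.7% of its length. Whether the authors counted by strand is not given in the sources used here, and without strand reads from either gene cannot be told apart in that overlap.

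ND3 and ND4L, small subunits of the membrane arm, were nearly without counts. ND3 (Entrez 17718, MT 9459 to 9806) had 2 and 13 counts in JAML-negative A and B and 124 and 88 counts in JAML-positive A and B. ND4L (Entrez 17720, MT 9877 to 10173) had 15 and 31 counts against 36 and 80 counts. In both genes the JAML-positive libraries lay above the JAML-negative libraries. The log2 fold changes were 3.75 (SE 2.21) for ND3 and 1.28 (SE 1.64) for ND4L, with edgeR adjusted p of 0.652 and 0.875. Per 1000 bases of transcript, the mean level over the 4 libraries was 5.78 CPM for ND3 and 4.69 CPM for ND4L, against 271 CPM for ND6, 950 for ND4, 1170 for ND5, 1930 for ND2 and 2770 for ND1.

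The genes with few counts are neighbours. COX2, ATP8, ATP6, COX3, ND3 and ND4L follow each other on the mitochondrial genome between positions 7013 and 10173. At least 99.5% of the 50-base stretches of COX2, ATP6 and COX3, subunits of cytochrome oxidase and ATP synthase, are shared with a gene of chromosome 1 as well, and these genes had 261 to 816 counts per library. COX1, with 51.1% shared, had 411884 to 488243 counts, and CYTB, with 0.0%, had 115570 to 136093. ATP8, a gene of 204 bases between COX2 and ATP6, had 3 to 9 counts and 0.0% shared. Only annotated transcripts were searched, so this 0.0% does not show that ATP8 lacks a nuclear copy. How the authors treated reads with several matches is not given in the sources used here, and the part of the shared sequence in these counts was not tested. The nuclear copies themselves were not analysed here. Within these limits, the levels of ND3 and ND4L and the difference of each between groups are uncertain.

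**Figure D1:**
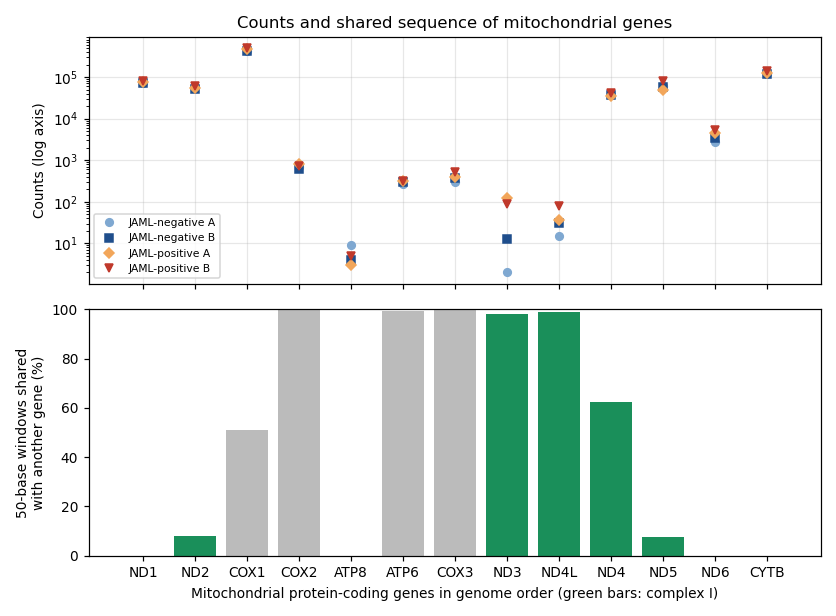
Upper panel: counts (log axis) of the 13 mitochondrial protein genes in genome order, 1 symbol per library. Lower panel: percentage of 50-base stretches of each transcript that are identical to an annotated transcript of a gene elsewhere, green for complex I subunits. ND3 and ND4L, with 98.0% and 98.8% shared, have 2 to 124 counts, whereas ND4, the lowest of ND1, ND2, ND4 and ND5, has 35481 to 40453.

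The nuclear members follow by module, from the tip of the matrix arm to the end of the membrane arm, and 38 of the 39 passed the filter on low counts. In the N module 8 of 10 members had a log2 fold change above 0 and 2 below, with a median of 0.54. Ndufv1 (Entrez 17995, chromosome 19, 4007499 to 4012755), which binds flavin and oxidises NADH, had 44.6 and 33.6 CPM in JAML-negative A and B and 84.9 and 68.8 CPM in JAML-positive A and B. Its groups did not overlap, and the log2 fold change of 0.97 (SE 0.39) had an edgeR adjusted p of 0.609. Ndufv2, an iron-sulfur subunit beside it, had 60.0 and 59.6 CPM against 99.1 and 72.9 CPM, again without overlap (0.52, SE 0.35). The largest iron-sulfur subunit, Ndufs1 (Entrez 227197, chromosome 1, 63143592 to 63176822), lay the other way. It had 98.7 and 124 CPM in JAML-negative A and B and 80.9 and 55.2 CPM in JAML-positive A and B, with a log2 fold change of -0.72 (SE 0.33, edgeR adjusted p = 0.609). The 3 core subunits of the module did not share a sign, and none of them passed over all genes.

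Among the accessory subunits of the N module, Ndufa12 had the smallest unadjusted p of all members. Ndufa12 (Entrez 66414, chromosome 10, 94199035 to 94221440) had 2.30 and 7.26 CPM in JAML-negative A and B and 18.1 and 40.4 CPM in JAML-positive A and B. The 4 values did not overlap between groups but differed 3.16-fold and 2.23-fold within them (log2 fold change 2.65, SE 0.87, edgeR adjusted p = 0.609). Of the 50-base stretches of Ndufa12, 26.2% are shared with Gm15920 on chromosome 5. Ndufa2 had 35.9 and 11.2 CPM against 73.9 and 38.1 CPM (1.22, SE 0.57). Its exons overlap those of Tmco6 on the opposite strand over 11.5% of their bases. Ndufv3 had 66.4 and 53.5 CPM against 51.3 and 42.9 CPM (-0.36, SE 0.39), without overlap and lower in JAML-positive cells. The remaining members of this module, Ndufs4, Ndufs6, Ndufa6 and Ndufa7, had log2 fold changes from 0.11 to 0.65.

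The Q module is where electrons reach ubiquinone, and 5 of its members are described. Of these 5, 4 were above 0 and 1 below, with a median of 0.21, and 0 had an unadjusted p under 0.05. Ndufs3, an early assembled core subunit, had 65.3 and 49.1 CPM against 41.7 and 54.4 CPM (-0.24, SE 0.40). Ndufs7 had 12.7 and 10.7 CPM against 18.7 and 13.5 CPM (0.44, SE 0.76). Ndufs8 had 19.4 and 29.0 CPM against 46.4 and 38.8 CPM (0.81, SE 0.50). Both of these iron-sulfur subunits had higher values in both JAML-positive libraries. The accessory subunit Ndufa5 had 18.1 CPM in JAML-negative A, 0 counts in JAML-negative B, and 13.0 and 6.08 CPM in JAML-positive A and B (0.027, SE 1.14), and Ndufa9 had a log2 fold change of 0.21.

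In the proximal membrane arm 7 of 9 nuclear members were above 0 and 2 below, with a median of 0.88. Ndufa8 (Entrez 68375, chromosome 2, 36036324 to 36049338), a subunit on the side of the intermembrane space, had 36.6 and 30.7 CPM in JAML-negative A and B and 73.4 and 58.5 CPM in JAML-positive A and B. The groups did not overlap, and the libraries within a group differed by no more than 1.26-fold (0.96, SE 0.41, edgeR adjusted p = 0.609). Ndufc2 had 36.7 and 8.06 CPM against 82.5 and 31.7 CPM (1.31, SE 0.65), with overlap. Ndufa11 lay the other way, with 29.5 and 9.15 CPM against 12.8 and 2.65 CPM (-1.40, SE 0.94), also with overlap. In both genes the B library of each group was the lower one.

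Ndufc1 (Entrez 66377, chromosome 3, 51405479 to 51408955), a small membrane subunit, had 1 count in each JAML-negative library and 259 and 113 counts in JAML-positive A and B. The ratio of summed counts was 180, with an exact 95% interval of 49.4 to 1490 that covers counting error only. By edgeR the adjusted p was 0.609. Among all genes, 255 had at most 3 counts in both JAML-negative libraries and at least 50 in both JAML-positive libraries, 68 genes had the reverse, and Ndufc1 was the 1 member among the 255. The JAML-negative libraries held more genes with at most 3 counts (3737 and 3820) than the JAML-positive libraries (3074 and 3208). The other members of the arm, Ndufa1, Ndufa3, Ndufa10, Ndufa13 and Ndufs5, had log2 fold changes from -0.051 to 0.88. Of the 50-base stretches of Ndufs5, 31.1% are shared with BC002163 on chromosome 16.

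In the distal membrane arm 9 of 11 nuclear members, all of the Ndufb class, were above 0 and 2 below, with a median of 0.52. None of the 11 had an unadjusted p under 0.05. Ndufb7 had 35.8 and 20.3 CPM in JAML-negative A and B and 43.6 and 3.58 CPM in JAML-positive A and B (-0.33, SE 0.79), a 12.2-fold difference inside the JAML-positive group. Ndufb3, Ndufb6 and Ndufb8 were higher in both JAML-positive libraries, with log2 fold changes of 0.75 to 0.82. Ndufb11 shares 12.9% of its exonic bases with Rbm10, Ndufb1 12.7% with Cpsf2 and Ndufb5 12.3% with Mrpl47, each on the opposite strand.

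A further 3 nuclear members fall in no module here. Ndufa4, now regarded as a subunit of cytochrome oxidase, had 46.4 and 30.4 CPM in JAML-negative A and B and 92.5 and 39.6 CPM in JAML-positive A and B (0.75, SE 0.48). Ndufs6b, which shares 25.4% of its 50-base stretches with Ndufs6, had 6.30 and 5.08 CPM against 3.29 and 0 CPM (-1.91, SE 1.58). Ndufb4b did not pass the filter, with 0 and 2 counts against 1 and 4 counts. The acyl carrier subunit Ndufab1, whose symbol the naming rule does not take in, had 13.5 and 7.01 CPM against 25.8 and 20.8 CPM (1.17, SE 0.72, edgeR adjusted p = 0.676).

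**Figure D2:**
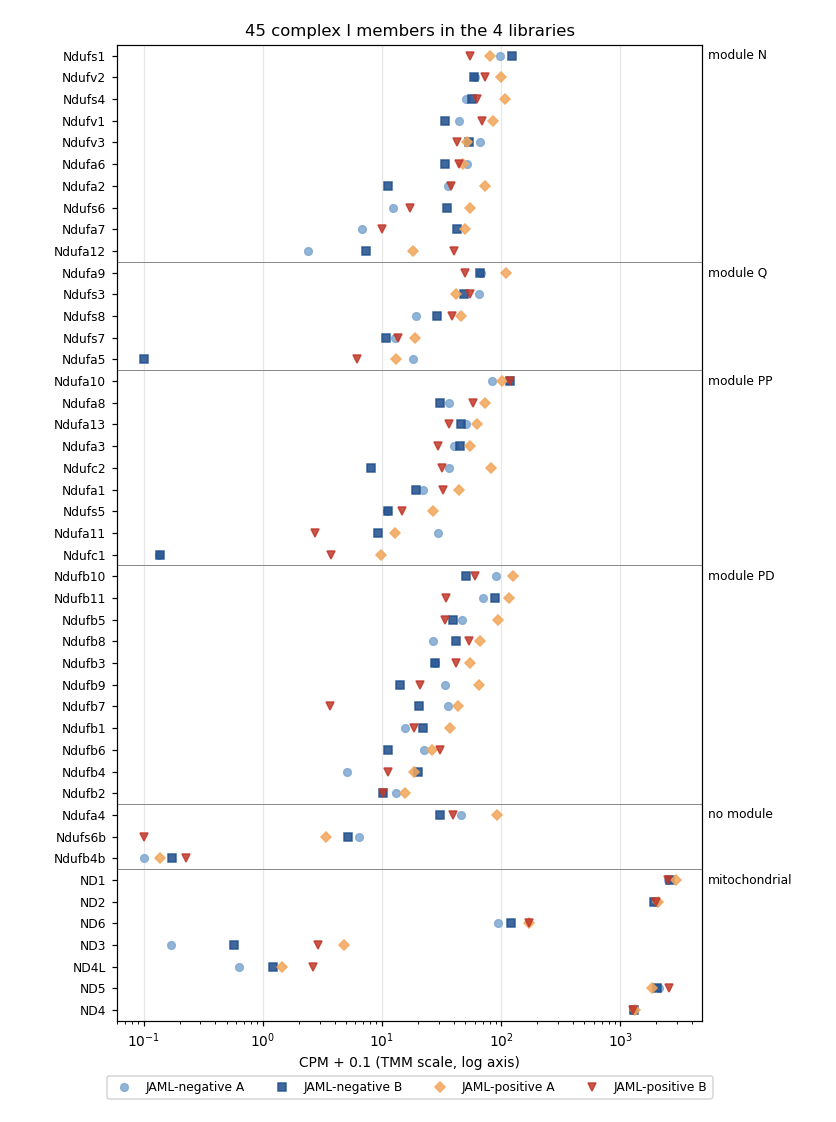
CPM plus 0.1 (log axis) of 45 of the 46 members in the 4 libraries, by module and, within a module, by mean level. JAML-positive A (orange diamonds) is the highest library for 26 of the 38 nuclear members tested, and the values of ND1, ND2 and ND4 lie close together in all 4 libraries.

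Over the list, 29 of the 38 nuclear members tested had a log2 fold change above 0 and 9 below. The median was 0.48, against 0.011 over the 11563 genes tested, of which 50.7% lay above 0. No member passed with edgeR, whose adjusted p lay between 0.609 and 0.996 for the members, and percent called over all genes was 0 (0 genes at an adjusted p under 0.05, with the smallest at 0.227). At an unadjusted p under 0.05 there were 4 nuclear members higher (Ndufa12, Ndufa8, Ndufc1 and Ndufv1) and 0 lower, and 1 mitochondrial member higher (ND6). The same threshold took 4.32% of all genes as higher and 3.34% as lower. JAML-positive cells had the higher values in both libraries, without overlap, for 14 nuclear members and the lower values for 3, beside 20.3% and 18.2% of all genes. The 14 were Ndufa1, Ndufa2, Ndufa8, Ndufa12, Ndufb3, Ndufb6, Ndufb8, Ndufc1, Ndufs4, Ndufs5, Ndufs7, Ndufs8, Ndufv1 and Ndufv2, and the 3 were Ndufs1, Ndufs6b and Ndufv3.

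With DESeq2, an alternative to edgeR, 5 members passed, all higher in JAML-positive cells. They were Ndufc1 (adjusted p = 0.00131), Ndufa12 (0.0168), Ndufa8 (0.0204), Ndufv1 (0.0220) and ND6 (0.0245). DESeq2 called 4.64% of all genes higher and 3.02% lower, 885 in all, where edgeR and limma-voom called 0. A call on any of these 5 genes therefore depends on the tool.

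**Figure D3:**
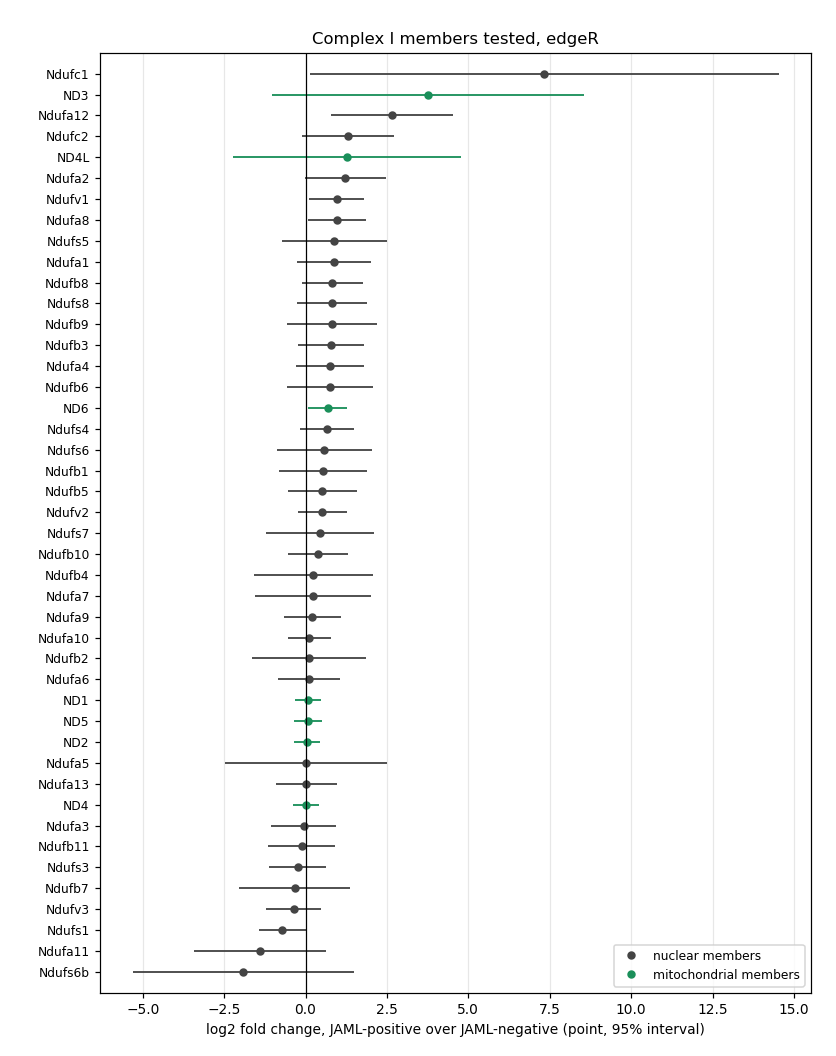
Log2 fold change of JAML-positive over JAML-negative cells with its 95% interval from edgeR, for 37 of the 38 nuclear (grey) and the 7 mitochondrial (green) members tested, ordered by size. The intervals of ND1, ND2, ND4 and ND5 are the narrowest, and those of Ndufc1, ND3 and ND4L, with few counts in some libraries, are the widest.

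The shift of the nuclear members rested on 1 library. Against each gene's own mean of log2 CPM, the median of the 38 nuclear members was -0.044 and -0.25 in JAML-negative A and B, 0.64 in JAML-positive A and -0.097 in JAML-positive B. JAML-positive A was the highest library for 26 of the 38. Without it, the median log2 fold change was -0.038 and 18 of 38 members were above 0, beside -0.022 and 48.7% over all genes. At an unadjusted p under 0.05 there was then 1 nuclear member higher and 3 lower, beside 1.72% and 1.86% of all genes in that fit. Without JAML-positive B the median was 0.77 and 33 of 38 were above 0. JAML-positive A is also the library with the highest share of ribosomal protein counts and the highest sum of dendritic cell and phagocyte markers, and the part of either in the shift was not tested.

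Transcript length moved with the same shift. Most nuclear members have short annotated transcripts, with an interquartile range of 632 to 1250 bases. Of the nuclear members under 1000 bases, 18 of 23 were above 0 with a median of 0.55, beside 519 of 762 other genes of that length (68.1%) with a median of 0.31. Of those with at least 1000 bases, 11 of 15 were above 0 with a median of 0.21, beside 5112 of 10311 other genes (49.6%) with a median of -0.0055. Other genes inside the interquartile range of the members, 1048 in number, had a median log2 fold change of 0.29 with 683 above 0, and in JAML-positive A they lay 0.49 above their own means. With trends of length and GC content removed in each library, the median of the nuclear members was 0.20 and 22 of 38 were above 0. The part of length in the difference was not tested further.

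**Figure D4:**
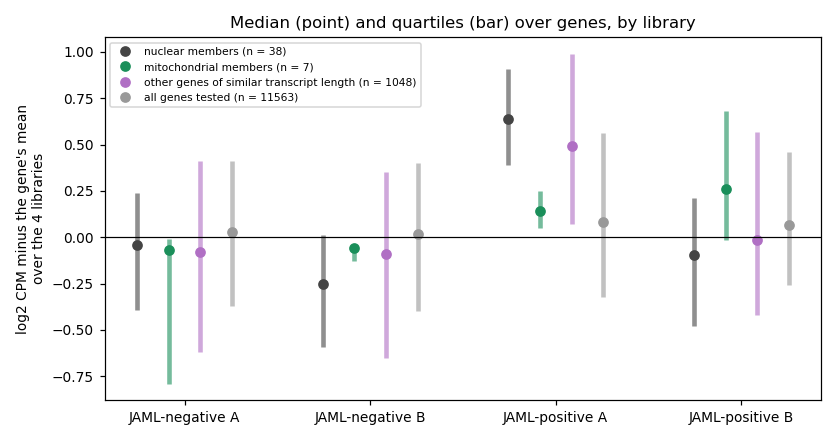
Log2 CPM minus each gene's mean over the 4 libraries, as the median (point) and quartiles (bar) over genes, for nuclear members, mitochondrial members, other genes of similar transcript length and all genes tested. In JAML-positive A the nuclear members (0.64) and the other genes of similar length (0.49) lie above 0, whereas in JAML-positive B they lie at -0.097 and -0.014.

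Spread between replicates was not even over the complex. The 7 nuclear core subunits differed by less than 2-fold between the replicates of a group in every case. Of the 31 accessory subunits tested, 19 differed by at least 2-fold in at least 1 group, beside 43.7% of all genes. The same held for 579 of the 1048 other genes of similar transcript length. Of these, 204 also had a mean CPM in the interquartile range of the nuclear members (22.8 to 53.6), and among them it held for 75. Such a spread thus occurred in other genes too, but its share depended on the genes set beside the accessory subunits. The accessory subunits had 25 members above 0 and 6 below (median 0.52). Among nuclear members with counts in both replicates, the widest gaps were those of Ndufb7 in the JAML-positive group (12.2-fold) and of Ndufa7, with 6.76 and 42.6 CPM in JAML-negative A and B and 49.9 and 9.88 CPM in JAML-positive A and B. Ndufa7 was chosen after its values were seen. For Ndufb7 the log2 fold change was 0.63 without JAML-positive B and -2.97 without JAML-positive A.

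Nuclear and mitochondrial subunits were then compared as sums. In these bulk samples fewer cells of a type and less RNA per cell cannot be told apart. The 39 nuclear members summed to 1531 and 1384 CPM in JAML-negative A and B and to 2281 and 1398 CPM in JAML-positive A and B. The means were 1458 ± 104 and 1839 ± 625 CPM (SD, n = 2 each, exact permutation p = 0.667). JAML-positive A was high, and JAML-positive B lay between the JAML-negative libraries. The 7 mitochondrial members summed to 8037 and 8025 CPM against 8375 and 8554 CPM, with means of 8031 ± 8.61 and 8464 ± 127 CPM (SD, n = 2 each, exact permutation p = 0.333). This is the smallest two-sided p that 2 against 2 libraries allow. The groups did not overlap here, but the log2 difference of the means was 0.076. The other mitochondrial messenger RNAs (COX1, COX2, COX3, CYTB, ATP6 and ATP8) summed to 19150 ± 621 and 21240 ± 1730 CPM (SD, n = 2 each), a log2 difference of 0.15 (exact permutation p = 0.333).

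As counts, mitochondrial exceeded nuclear complex I messages 5.25-fold and 5.80-fold in JAML-negative A and B and 3.67-fold and 6.12-fold in JAML-positive A and B. JAML-positive A was the lowest and JAML-positive B the highest of the 4. On the log2 scale, nuclear over mitochondrial counts were -2.46 ± 0.10 in JAML-negative and -2.24 ± 0.52 in JAML-positive cells (SD, n = 2 each, difference 0.22, exact two-sided permutation p of 1). Without JAML-positive A the difference was -0.15, and without JAML-positive B it was 0.59, so its sign depended on 1 library. All 7 mitochondrial members had a log2 fold change above 0 on the TMM scale, but 6 did with library totals only and 3 with length and GC trends removed. Their median was 0.086 (0.30 without JAML-positive A and 0.18 without JAML-positive B), and 3 of the 7 (ND3, ND4L and ND6) did not overlap between groups and were higher in JAML-positive cells, beside 20.3% of all genes. ND3 and ND4L are the members nearly without counts.

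**Figure D5:**
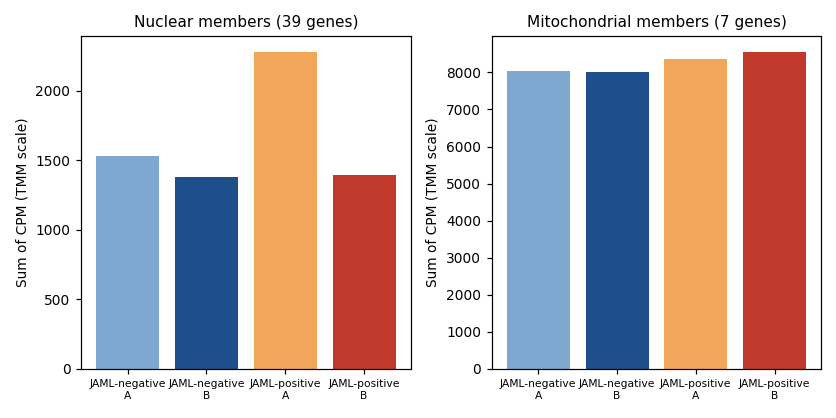
Sum of CPM over the 39 nuclear members (left) and the 7 mitochondrial members (right) in each of the 4 libraries, with both axes starting at 0. The nuclear sum is 2281 CPM in JAML-positive A and 1384 to 1531 CPM in the other libraries, and the mitochondrial sum is 8025 to 8554 CPM.

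Of the other genes on which the complex depends, assembly factors showed no common direction. Of 18 tested, 10 were above 0 and 8 below (median 0.044), and 0 passed with edgeR. Ndufaf5, which modifies a Q module subunit during assembly, had 29.5 and 20.6 CPM in JAML-negative A and B and 4.08 and 9.02 CPM in JAML-positive A and B (-1.90, SE 0.78, edgeR adjusted p = 0.609). Timmdc1, a membrane arm assembly factor, had 146 and 0 counts against 554 and 581 counts (2.91, SE 1.12, edgeR adjusted p = 0.609). Ndufaf8, named after its values were seen, had 0 counts in both JAML-negative libraries and 196 and 118 counts in JAML-positive A and B. This is at least 52.0-fold higher when set against 3 counts per JAML-negative library (log2 fold change 10.27, SE 4.62, edgeR adjusted p = 0.609). Ndufaf8 is among the 255 genes of the table with at most 3 counts in both JAML-negative libraries and at least 50 in both JAML-positive libraries.

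Genes of mitochondrial transcription and messenger RNA stability were also split, with 13 of 24 above 0 and 11 below (median 0.024). Tfb2m, a transcription factor of the mitochondrial polymerase, had 45.9 and 27.5 CPM in JAML-negative A and B and 11.6 and 12.2 CPM in JAML-positive A and B (-1.63, SE 0.62, edgeR adjusted p = 0.609). Slirp, which binds mitochondrial messenger RNAs together with Lrpprc, had 2 and 0 counts against 234 and 176 counts (7.47, SE 3.14, edgeR adjusted p = 0.609). Slirp is also among the 255 genes with this pattern of counts. The ratio of its summed counts was 198, with an exact 95% interval of 54.5 to 1640 for counting error only. Regulators of nuclear respiratory genes lay mostly below 0, 9 of 12 with a median of -0.31. Against each gene's own mean, their median was 0.10 and 0.29 in JAML-negative A and B, -0.42 in JAML-positive A and 0.0036 in JAML-positive B, and JAML-positive A was the lowest library for 7 of the 12. Ppargc1b, a coactivator of mitochondrial biogenesis, had 34.2 and 30.7 CPM against 6.20 and 8.86 CPM (-2.09, SE 0.68, edgeR adjusted p = 0.609). Myc, which drives growth in activated T cells, had 163 and 141 CPM against 76.7 and 113 CPM (-0.67, SE 0.29, edgeR adjusted p = 0.609). DESeq2 called Ppargc1b (adjusted p = 2.464e-04), Slirp (0.00191), Tfb2m (0.00774) and Ndufaf5 (0.0327), so a call on these genes depends on the tool as well. For Tfb2m, Ppargc1b and Myc both JAML-positive libraries lay below both JAML-negative libraries. Among the other mitochondrial messages, COX1 (0.16, SE 0.17) and CYTB (0.11, SE 0.18) were the 2 with the smallest p.

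Promoters of the nuclear members were examined for motifs of known regulators of respiratory genes, from 250 bases before to 50 after the RefSeq start (GRCm38.p6), and 34 members matched an entry. The NRF1 core CGCANGCGC was found on either strand in 9 of the 34 (26.5%, against 14.6% of the 10467 coding genes of the table with an entry), the ETS core CCGGAAG in 4 (11.8% against 19.5%) and the YY1 core AAGATGGC in 7 (20.6% against 5.1%). None of the 3 motifs contains another. All 7 YY1 matches begin between 23 and 39 bases after the start. They belong to Ndufa3, Ndufa9, Ndufb8, Ndufc1, Ndufs4, Ndufs6 and Ndufs7. The motifs were not compared with the fold changes. The 250 bases before the start of Ndufa8 and Ndufa12 are printed because these genes had the smallest p among the members with at least 10 CPM in a group and an NRF1 match. Ndufa8 (chr2:36049339-36049588, minus strand) has matches that begin 30 and 9 bases before the start, and Ndufa12 (chr10:94198785-94199034, plus strand) has 1 that begins 120 bases before it. Capitals mark the matches.
Ndufa8: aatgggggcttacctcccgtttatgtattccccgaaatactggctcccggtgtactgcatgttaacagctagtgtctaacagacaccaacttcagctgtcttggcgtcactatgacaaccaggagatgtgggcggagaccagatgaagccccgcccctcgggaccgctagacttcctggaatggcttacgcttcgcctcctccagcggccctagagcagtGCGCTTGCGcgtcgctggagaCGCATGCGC
Ndufa12: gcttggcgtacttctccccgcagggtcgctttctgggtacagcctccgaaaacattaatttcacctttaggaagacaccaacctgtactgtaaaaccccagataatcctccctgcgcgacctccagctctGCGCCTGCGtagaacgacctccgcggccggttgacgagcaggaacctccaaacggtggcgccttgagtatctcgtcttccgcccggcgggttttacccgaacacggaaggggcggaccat
In Ndufa8 the second match ends at the last base before the start. A match describes these letters only, and binding of a factor was not measured.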

How the data were processed

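Bulk RNA-seq of 4 libraries gave a table of raw read counts per gene, deposited by the authors. The build they name is GRCm38 (mm10), per the submitters' processing notes. Which aligner and counter they ran, and how strand and multiple matches were handled, is not given in the sources used here. Members and lists were chosen with earlier results of these data known. Counts were tested over the whole table with edgeR 4.0.16 in R 4.3.3 (filterByExpr with a minimum count of 10, TMM factors, robust quasi-likelihood test, Benjamini-Hochberg, threshold 0.05), which kept 11563 genes. The choice between the present and the earlier quasi-likelihood dispersion method was made after several settings of both had been run and seen, to match earlier processing of these counts. The present method is reported (smallest adjusted p 0.227, 885 genes at an unadjusted p under 0.05), and the earlier one gave 0.704 and 814 genes. Both called 0 genes. The standard error (SE) was taken from the fold change and the F statistic of the same test. CPM are on the TMM scale, and deviations use log2(CPM + 0.1). Sums and ratios were tested by exact permutation over libraries, two-sided, where the smallest p is 0.333. DESeq2 1.42.0, limma 3.58.1 (voom), other scaling and filters, a replicate block, removal of length and GC trends and leaving out each library were the alternatives. Intervals of log2 fold changes come from the edgeR fit and include the spread between libraries. Exact intervals of ratios of summed counts cover counting error only. Reads carry no molecular identifiers. Scripts were tested on simulated data.

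Genes described with values in every library were the mitochondrial and nuclear core subunits, the 5 nuclear members of smallest p, higher and lower, with a mean of at least 10 CPM in a group, members with at most 3 counts in a library or below the filter, the most and least abundant nuclear members, Ndufa4, and the 2 genes with the smallest p of each other list. Coordinates are RefSeq's (GRCm38.p6). Transcript length, GC content and shared 50-base stretches came from GENCODE transcripts of the same build, which 45 members have. For each gene the longest coding transcript annotated as principal was taken. Without such a transcript it was the longest coding transcript, or otherwise the longest of any kind. Which transcripts of a gene these cells expressed was not examined. Promoters were RefSeq's, without Ndufa2, Ndufb9, Ndufs1 and Ndufs6b among others. Ndufa4l2 was not analysed here, and 1 nuclear member that counts, medians and sums include is not reported here by itself.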

Additional observations from a re-analysis of the deposited data

How the results depend on the processing

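The number of libraries, 2 per group, limited the precision for all members, and depth limited it further for those with few counts (ND3, ND4L, Ndufc1, Ndufa5, Ndufs6b and Ndufb4b). No sequencing batch is given, and the meaning of A and B is not stated. The cause of the changes below was not tested, except that leaving out a library leaves 1 sample in its group, which is then assumed to vary like the other group. The number of genes past the threshold, 0 with edgeR, was 885 with DESeq2 and 2 with no filter on low counts, and 0 to 11 with 1 library left out, 11 being without JAML-positive B. Complex I members past the threshold were 5 with DESeq2 and 0 under every other alternative that was run. The median of the nuclear members ranged from -0.038 (without JAML-positive A) to 0.77 with 1 library left out, and the number above 0 from 18 to 33. The median of the mitochondrial members was -0.024 with length and GC trends removed and 0.10 to 0.30 with 1 library left out. The log2 difference of nuclear over mitochondrial counts ranged from -0.15 to 0.59. Without members that share over 10% of their 50-base stretches with another gene, an alternative chosen after seeing the data, it was 0.20, and the medians were 0.48 (nuclear) and 0.082 (mitochondrial).

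With library totals only, the sign turned for 1 mitochondrial member, ND4 (-0.0088), and 2 nuclear members, Ndufa5 (-0.0013) and Ndufa13. With length and GC trends removed it turned for 7 nuclear members (Ndufa5, Ndufa6, Ndufa7, Ndufa9, Ndufa10, Ndufa13 and Ndufb4) and 4 mitochondrial members. Values for the genes described in full were COX1 (-0.017), CYTB (-0.12), ND1 (-0.18), ND2 (-0.16), ND4 (-0.12), ND5 (-0.024) and Ndufa5 (-0.32). With 1 library left out, the log2 fold change changed sign and ranged from -0.015 to 0.18 for ND1, -0.0043 to 0.040 for ND4, -0.18 to 0.30 for ND5, -0.95 to 11.05 for Ndufa5 and -2.97 to 0.63 for Ndufb7. It kept its sign but ranged from 0.043 to 1.26 for Ndufa4, 0.49 to 2.79 for Ndufc2, -2.87 to -0.32 for Ndufa11, 1.93 to 12.13 for Timmdc1 and -10.37 to -0.80 for Ndufs6b. Deviations of same-lettered libraries correlated across genes with r = 0.02. With 2 libraries per group this cannot decide whether libraries of the same letter share a mouse, pool or sort. With the replicate block, edgeR called 0 genes, and the medians were 0.46 (nuclear) and 0.083 (mitochondrial).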
